A study of Homo sapiens with 8 samples.

Results

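The mitochondrial ribosomal protein genes were taken here as all protein-coding genes whose symbol begins with MRPL or MRPS in GENCODE release 29. This gave 78 of the 58395 genes in the deposited count table, on 21 chromosomes, and all 78 passed the filter on low counts that left 15637 genes to test. They were compared between 2 groups of 4 RNA-seq libraries from AB8 cells, a human line derived from podocytes, the filtering cells of the kidney glomerulus. The induced cells received doxycycline for 48 h to switch on the construct pIND21_hCrb2+GFP_S267A, which carries human CRB2, an apical polarity protein, with GFP and the S267A change. The non-induced cells carried the same construct and received no doxycycline. All cells were at passage 3-8 after modification. Because no doxycycline-treated cells lacking the construct are among these libraries, the drug and the induced protein cannot be told apart. The labels do not say whether replicates 1 to 4 were separate cultures or whether the line is a single clone, and the p-values reflect only how far these 8 libraries vary.

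The mitochondrial ribosome translates the few messenger RNAs encoded by mitochondrial DNA, all of which code for subunits of the respiratory chain and ATP synthase. Its ribosomal RNAs come from mitochondrial DNA, whereas its proteins are encoded in the nucleus and imported. Many of these proteins have a counterpart in the bacterial ribosome and others occur only in mitochondria. Doxycycline, a tetracycline antibiotic that binds the small subunit of bacterial ribosomes, is also known to inhibit mitochondrial translation, which is why these genes are of interest in a doxycycline-inducible cell line. Inherited defects of several mitochondrial genes are known to cause podocyte disease.

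Nuclear genes for mitochondrial proteins often carry promoter sites for ETS factors (the GABP or NRF2 site), NRF1 and YY1. RefSeq promoter windows on GRCh38.p14, running from 250 bases before to 50 bases after each start, matched 69 of the 78 genes and gave 85 windows. On either strand, the ETS letters CCGGAAG were found in 33 of the 85 windows (38.8%), against 10.3% of all 35116 windows and 16.6% of the 15335 windows of tested genes. A YY1 motif of 10 letters, seen in reverse complement in the MRPL36 window below, was in 13 windows (15.3%), against 1.2% of all windows and 2.36% of those of tested genes. A palindromic NRF1 motif of 10 letters was in 1 window (1.18%), against 1.24% and 1.92%. At least 1 of the 3 motifs was in 50.6% of the members' windows, against 12.1% and 19.8%. Windows of 1 gene can overlap, and no ETS match overlapped a YY1 match by the 3 bases they could share. Matches are descriptions of the letters and not of bound sites.

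The 250 bases before the start are printed for 4 genes whose levels are described below, 5′ to 3′ on the gene's own strand, with a motif match in capitals. They were chosen to show an ETS match, a YY1 match and a window with neither. MRPS21 (chr1:150293611-150293860, plus strand) and MRPS23 (chr17:57850045-57850294, minus strand) hold the ETS letters in reverse complement close to the start. MRPL36 (chr5:1799838-1800087, minus strand) holds the YY1 letters in reverse complement. MRPL24 (chr1:156741089-156741338, minus strand) holds none of the 3 motifs.
MRPS21: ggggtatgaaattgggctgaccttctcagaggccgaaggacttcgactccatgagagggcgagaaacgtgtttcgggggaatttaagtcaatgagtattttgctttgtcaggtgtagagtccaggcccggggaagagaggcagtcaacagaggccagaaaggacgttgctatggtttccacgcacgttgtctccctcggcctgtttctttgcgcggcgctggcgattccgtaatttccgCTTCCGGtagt
MRPS23: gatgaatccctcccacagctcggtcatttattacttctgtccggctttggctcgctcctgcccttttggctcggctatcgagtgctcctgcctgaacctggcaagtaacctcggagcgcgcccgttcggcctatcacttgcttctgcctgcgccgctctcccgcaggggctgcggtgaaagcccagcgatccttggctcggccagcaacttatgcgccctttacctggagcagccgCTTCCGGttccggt
MRPL36: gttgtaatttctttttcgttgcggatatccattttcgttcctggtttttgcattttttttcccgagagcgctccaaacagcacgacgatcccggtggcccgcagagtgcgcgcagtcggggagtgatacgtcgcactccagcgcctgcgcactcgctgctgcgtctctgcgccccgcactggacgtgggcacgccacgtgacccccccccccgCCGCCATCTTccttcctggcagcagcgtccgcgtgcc
MRPL24: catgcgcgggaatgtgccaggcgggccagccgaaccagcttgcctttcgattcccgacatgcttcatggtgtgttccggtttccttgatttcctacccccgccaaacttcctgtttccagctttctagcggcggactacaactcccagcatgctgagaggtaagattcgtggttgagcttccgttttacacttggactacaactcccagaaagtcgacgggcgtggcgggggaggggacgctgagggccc

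Libraries held 19008593 to 23081616 counted reads in induced cells and 16829454 to 21731488 in non-induced cells. CRB2 itself was at 34245, 97191, 96566 and 85310 reads in induced libraries 1 to 4, against 167, 557, 565 and 364 reads in non-induced libraries 1 to 4. Both libraries numbered 1 stood apart from the rest of their groups, and results are given without them where that moves a call or a value. Each member had between 20 and 3660 reads in a library, and 71 of the 78 had 300 or more in every library. NPHS1, which codes for the slit diaphragm protein nephrin and is a defining podocyte marker, was under 0.2 CPM in every library. Other genes of the podocyte list were detected, with SYNPO at 26.6 to 49.5 CPM in induced and 20.2 to 50.5 CPM in non-induced libraries, and PODXL at 3.09 to 4.16 CPM and 2.09 to 3.41 CPM in induced and non-induced libraries. CD2AP was at 237 to 255 CPM in induced and 206 to 242 CPM in non-induced libraries, and TJP1 at 226 to 318 CPM in induced and 193 to 262 CPM in non-induced libraries. CPM is the read count per 1000000 reads of the library total scaled by TMM. Summed markers of tubular cells reached at most 0.911 CPM, those of endothelial cells 1.11, those of leukocytes 3.92 and those of mesangial cells 18.8. The leukocyte sum was 2.19 to 2.94 CPM in induced and 3.41 to 3.92 CPM in non-induced libraries, with PTPRC and CD3E under 0.2 CPM in every library. Its part in any result below was not tested. In bulk RNA, fewer cells of a type and less RNA per cell cannot be told apart.

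As a group, the 78 genes were at nearly the same level in both conditions, with a small displacement to lower values in induced cells. The median log2 change, induced over non-induced, was -0.057 (-3.9%), and it was 0.001 over all tested genes. The members' quartiles were -0.10 and -0.01, and 72 of the 78 were within 0.2 of 0. Below 0 were 67 members (85.9%), against 49.8% of all tested genes. Among lists described further below, the share was 84.0% of 25 genes for mitoribosome assembly and ribosomal RNA modification. It was 71.4% of 7 other mitoribosome proteins and 72.7% of 11 mitochondrial chaperones and proteases. It was 42.9% of translation factors, 35.0% of aminoacyl-tRNA synthetases and amidotransferase subunits, and 45.5% of genes for transcription and RNA stability. It was 53.8% of messenger RNAs and 100% of ribosomal RNAs encoded by mitochondrial DNA. The summed level of the 78 genes was 4319, 4279, 4382 and 4455 CPM in induced libraries 1 to 4, against 4685, 4375, 4382 and 4629 CPM in non-induced libraries 1 to 4. The sums of the 2 groups overlapped, with induced libraries 3 and 4 at or above non-induced libraries 2 and 3. The summed level averaged 4359 ± 76.9 CPM in induced cells and 4518 ± 162 CPM in non-induced cells (SD, n = 4 each). Without both libraries numbered 1 the median change of the members was -0.032.

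No single member passed edgeR's quasi-likelihood test at a Benjamini-Hochberg adjusted p of 0.05, where 5 genes of all tested (0.032%) passed as higher and 1 (0.0064%) as lower. The smallest adjusted p of a member was 0.257, for MRPL16. An unadjusted p of at most 0.05 was reached by 7 members (8.97%), against 9.38% of all tested genes. Of these 7, 6 were lower, where 4.26% of all genes were, and 1 was higher, where 5.12% were. DESeq2 called 1 member lower, MRPL16, with an adjusted p of 0.0396, where it called 0.844% of all tested genes lower and 0.691% higher. The standard errors of the members' log2 changes had a median of 0.07, so changes as small as the members' median were within the error of a single gene.

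The plot of the members' changes gives each gene with its error.

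**Figure D1:**
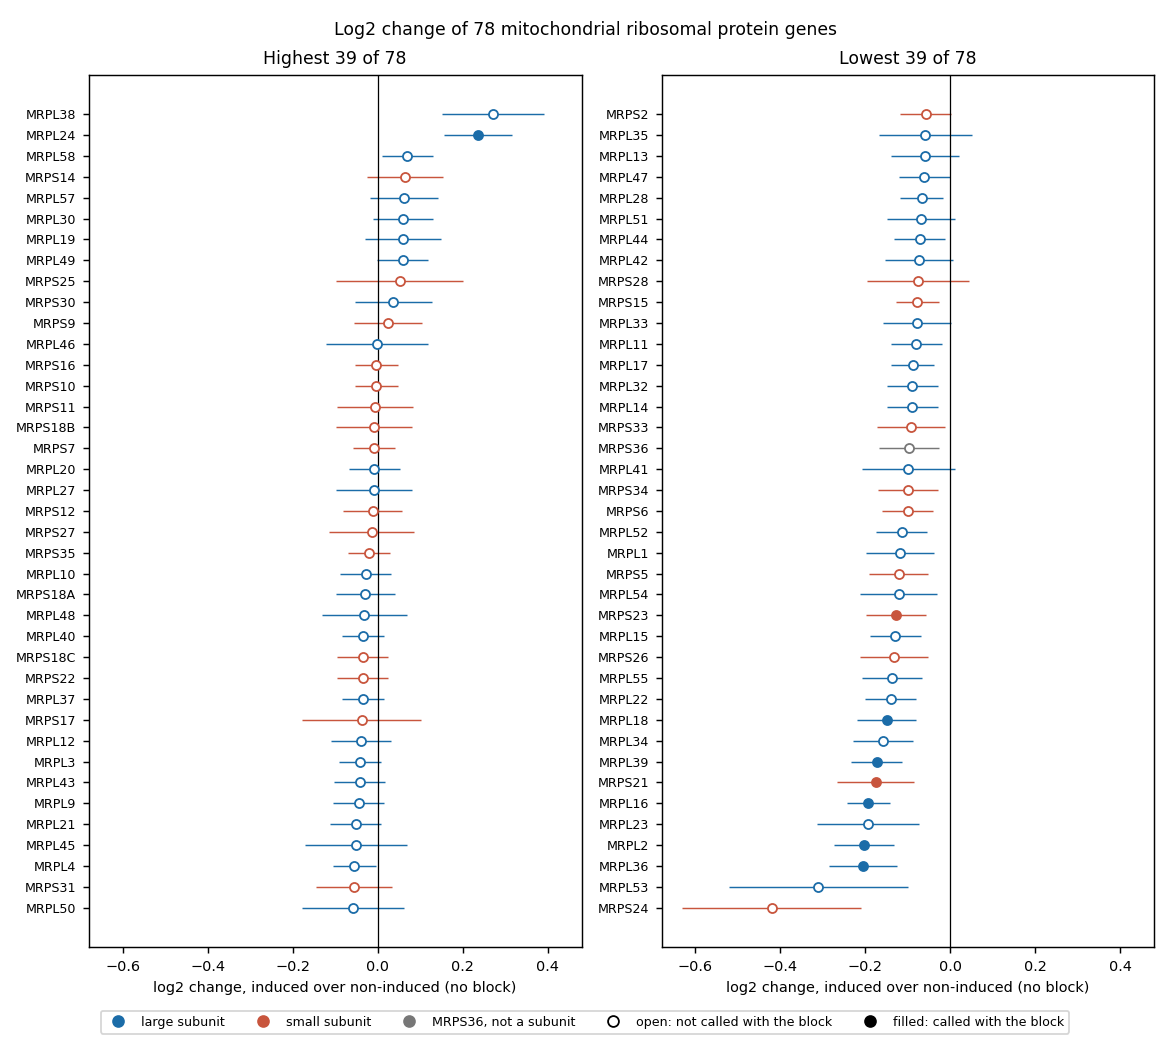
Log2 change of each of the 78 members, induced over non-induced libraries (horizontal axis), with the standard error derived from the edgeR test without a block as bars, n = 4 libraries a group. Colours mark the subunit and filled points the 8 members called with the replicate block; 67 points lie below 0.

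The libraries carried numbers 1 to 4 in both groups, and same-numbered libraries deviated together across genes, and a second fit that takes the number as a block (the replicate block) is given wherever it changes a call. With the block 1175 of all tested genes (7.51%) were called higher and 984 (6.29%) lower. Of the members, 1 was called higher (1.28%), MRPL24. The 7 called lower (8.97%) were MRPL2, MRPL16, MRPS21, MRPL18, MRPL36, MRPS23 and MRPL39. The share of members called lower was near that of all genes and the share called higher was below it. An unadjusted p of at most 0.05 was reached by 17 lower members (21.8%), against 13.3% of all genes, and by 2 higher members (2.56%), against 15.2%. With the block in DESeq2, MRPL2 alone among the members was called, as lower, where 3.43% of all genes were called lower and 3.65% higher. With the block but without both libraries numbered 1, 2 members were called lower, where 5.79% of all genes were, and 1 higher, where 5.12% were.

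The 30 large-subunit members with a bacterial counterpart had a median log2 change of -0.07. With the block 1 of them was called higher and 4 lower, where 7.51% and 6.29% of all tested genes were, and whether calls were more frequent in this class was not tested. MRPL2, counterpart of bacterial L2 near the peptidyl transferase centre, lies on chromosome 6 from 43054029 to 43059806 (ENSG00000112651, minus strand). It was at 51.7, 46.0, 47.3 and 48.2 CPM in induced libraries 1 to 4, against 62.7, 50.8, 53.7 and 55.3 CPM in non-induced libraries 1 to 4. Each induced library was below its same-numbered partner, while the groups overlapped because induced library 1 exceeded non-induced library 2. With the block the log2 change was -0.20, with a standard error of 0.04 and an edgeR adjusted p of 0.00797, which was 0.424 without the block. Among the members called with the block, MRPL2 alone stayed called in every alternative with the block at the 0.05 threshold, with adjusted p from 0.000655 to 0.0491. Its exons share 373 bases with KLC4 on the opposite strand, and no source used here gives the strand setting with which reads were counted, so reads of the 2 genes in those bases cannot be told apart.

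MRPL16, counterpart of bacterial L16, lies on chromosome 11 from 59806135 to 59810872 (ENSG00000166902, minus strand). It was at 50, 48.5, 49.1 and 52.8 CPM in induced libraries 1 to 4, against 56.6, 55.7, 58.1 and 58.6 CPM in non-induced libraries 1 to 4. All 4 induced libraries were below all 4 non-induced ones. The gene averaged 50.1 ± 1.91 CPM in induced cells and 57.3 ± 1.32 CPM in non-induced cells (SD, n = 4 each). Its log2 change was -0.19 with a standard error of 0.04 and an edgeR adjusted p of 0.00813 with the block. The call was lost with DESeq2 and the block (0.0533) and with edgeR and the block without pair 3 (0.0526).

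MRPL18, whose bacterial counterpart L18 binds a ribosomal RNA of the large subunit, lies on chromosome 6 from 159789812 to 159798436 (ENSG00000112110, plus strand). It was at 52.2, 57.9, 60.2 and 63.5 CPM in induced libraries 1 to 4, against 61.5, 65.1, 64.4 and 68.4 CPM in non-induced libraries 1 to 4. Every pair was lower by 0.10 to 0.24 on the log2 scale, although the groups overlapped. The fitted log2 change was -0.15 with a standard error of 0.04 and an edgeR adjusted p of 0.0295 with the block, and the adjusted p was 0.0611 to 0.0962 when any 1 pair was left out. MRPL36, counterpart of the small bacterial protein L36, lies on chromosome 5 from 1798386 to 1801366 (ENSG00000171421, minus strand) and has the YY1 match printed above. It was at 21.9, 25.9, 24.0 and 24.6 CPM in induced libraries 1 to 4, against 26.1, 27.8, 26.4 and 30.9 CPM in non-induced libraries 1 to 4. The groups did not overlap, with non-induced library 1 just above induced library 2. The log2 change was -0.20 with a standard error of 0.06 and an edgeR adjusted p of 0.0362 with the block, and the call was lost without pair 1 (0.0893), pair 3 (0.0704) or pair 4 (0.17).

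MRPL24 was the member called higher. It is the counterpart of bacterial L24, a protein of early large-subunit assembly, and lies on chromosome 1 from 156737303 to 156741590 (ENSG00000143314, minus strand). It was at 40.5, 46.0, 47.8 and 46.2 CPM in induced libraries 1 to 4, against 41.2, 35.6, 36.1 and 40.6 CPM in non-induced libraries 1 to 4. Induced libraries 2, 3 and 4 were above all non-induced libraries, and the pair numbered 1 was nearly level. The log2 change was 0.24 with a standard error of 0.07 and an edgeR adjusted p of 0.0339 with the block, and 0.376 without it. Without both libraries numbered 1 it was called without the block too, with an adjusted p of 0.0213, in a fit that called 1.53% of all genes higher. The call with the block was lost without pair 2 (0.108), pair 3 (0.159) or pair 4 (0.129).

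Of the 19 large-subunit members that occur only in mitochondria, with a median log2 change of -0.05, MRPL39 alone was called with the block. It was called lower (5.26% of the 19), where 6.29% of all tested genes were. MRPL39, on chromosome 21 from 25585656 to 25607517 (ENSG00000154719, minus strand), was at 40.3, 43.2, 42.5 and 42.7 CPM in induced libraries 1 to 4, against 50.1, 47.0, 43.2 and 49.9 CPM in non-induced libraries 1 to 4. The groups touched at 43.2 CPM when rounded, and the pair numbered 3 differed by only -0.02 on the log2 scale. The change on the log2 scale was -0.17 with a standard error of 0.05 and an edgeR adjusted p of 0.0429 with the block, and the call was lost without pair 1 (0.168), pair 2 (0.0552) or pair 4 (0.154) and with robust estimation turned off (0.0528). MRPL38, another protein found only in mitochondrial ribosomes, had the largest positive change, 0.27 with a standard error of 0.12, and was not called (adjusted p 0.543 without and 0.117 with the block in edgeR). It was at 5.67, 5.73, 5.10 and 4.83 CPM in induced libraries 1 to 4, against 5.02, 4.34, 4.29 and 4.01 CPM in non-induced libraries 1 to 4, higher in 4 of 4 pairs. It shares 37.5% of its exon bases with a gene on the same strand. MRPL58, a peptidyl-tRNA hydrolase that rescues stalled ribosomes and is also part of the large subunit, was at 54.2 ± 1.98 CPM in induced cells and 51.6 ± 2.30 CPM in non-induced cells (SD, n = 4 each) and was not called.

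The small subunit, which holds the decoding site, had 26 members. With the block 2 of them were called lower (7.69%), where 6.29% of all tested genes were. MRPS21, counterpart of bacterial S21, lies on chromosome 1 from 150293720 to 150308979 (ENSG00000266472, plus strand). It was at 76.2, 64.3, 72.5 and 74.4 CPM in induced libraries 1 to 4, against 92.5, 72.1, 76.8 and 83.1 CPM in non-induced libraries 1 to 4. Every pair was lower, by 0.08 to 0.28 on the log2 scale, with overlapping groups. The log2 change was -0.17 with a standard error of 0.04 and an edgeR adjusted p of 0.0158 with the block, which became 0.0665 without pair 1 and 0.0522 without pair 4. MRPS23, a protein of the mitochondrial small subunit with no bacterial counterpart, lies on chromosome 17 from 57834781 to 57850056 (ENSG00000181610, minus strand). It was at 102, 89.5, 93.6 and 98.2 CPM in induced libraries 1 to 4, against 114, 97.1, 98.2 and 109 CPM in non-induced libraries 1 to 4. The log2 change was -0.13 with a standard error of 0.04 and an edgeR adjusted p of 0.0406 with the block, and the adjusted p was 0.0813 to 0.121 when any 1 pair was left out. MRPS12, the counterpart of the decoding-site protein S12, was at 54.7 ± 5.48 CPM in induced cells and 55.2 ± 1.66 CPM in non-induced cells (SD, n = 4 each).

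**Figure D2:**
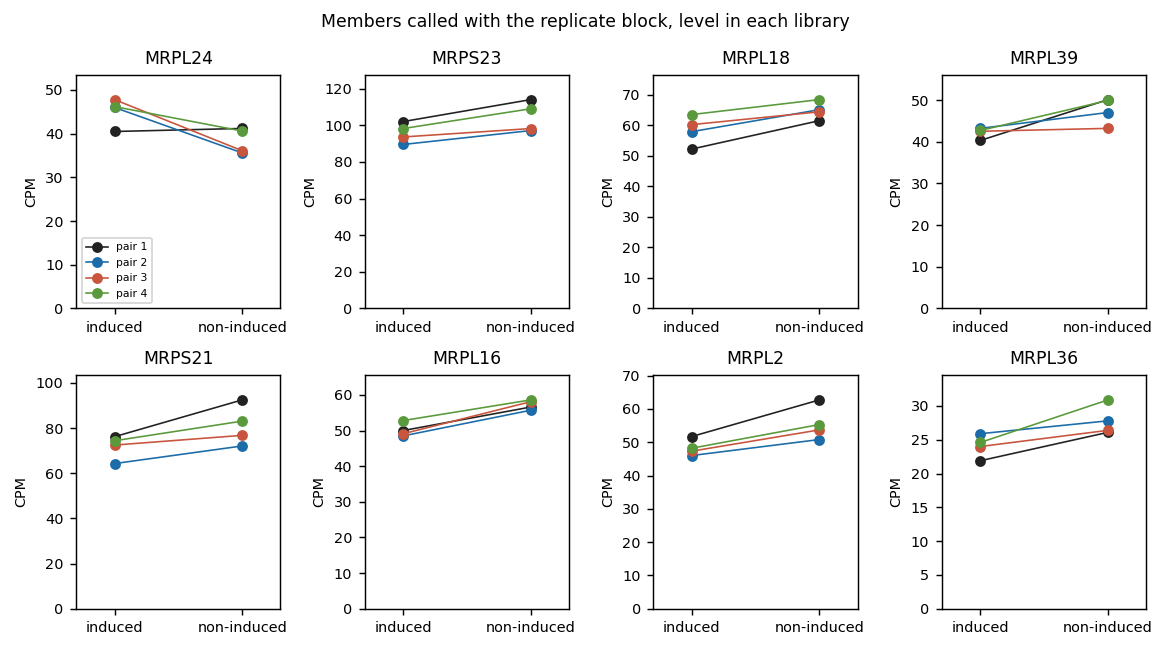
Level of the 8 members called with the replicate block, in CPM (vertical axes from 0), in each induced (left) and non-induced (right) library, with a line joining the libraries of 1 number. In 7 genes all 4 lines run higher on the non-induced side, and in MRPL24 the lines of pairs 2, 3 and 4 are higher on the induced side.

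By subunit, the 51 large-subunit members had a median log2 change of -0.06, with 1 called higher (1.96%) and 5 lower (9.8%) with the block. The 26 small-subunit members had -0.04 with 0 higher and 2 lower (7.69%). Of all tested genes 7.51% were called higher and 6.29% lower. The difference between the subunits was not tested. Symbols did not always match the subunit. MRPS18A and MRPS30 are known to be large-subunit proteins despite their names, and MRPS36 is known as KGD4, a subunit of the 2-oxoglutarate dehydrogenase complex. MRPS18A was at 32.6 ± 1.85 CPM in induced cells and 33.2 ± 1.86 CPM in non-induced cells (SD, n = 4 each). Its relatives MRPS18B, at 92.4 ± 7.21 and 92.8 ± 9.63 CPM in induced and non-induced cells, and MRPS18C, at 38.7 ± 1.38 and 39.6 ± 2.63 CPM, were also within their spread. MRPS30, at 46.8 ± 5.12 CPM in induced and 45.6 ± 3.99 CPM in non-induced cells, and MRPS36, at 21.9 ± 0.959 and 23.4 ± 1.48 CPM, were not called. MRPL12, the stalk protein that contacts translation factors, was at 46.4 ± 3.36 CPM in induced and 47.6 ± 2.31 CPM in non-induced cells, and 68.2% of its exon bases lie in another gene on the same strand.

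Groups did not overlap for 6 members, all lower in induced cells (7.69%), where 3.22% of all tested genes were lower without overlap and 3.82% higher. Besides MRPL16, MRPL36 and MRPL39, these were MRPL17, MRPL23 and MRPL34, counterparts of bacterial L17, L23 and L34. MRPL34 was at 27.5, 26.2, 27.5 and 29.0 CPM in induced libraries 1 to 4, against 33.4, 29.1, 29.1 and 31.3 CPM in non-induced libraries 1 to 4, and its adjusted p was 0.0726 in edgeR with the block. MRPL17 was at 57.4 to 64.0 CPM in induced and 64.6 to 68.2 CPM in non-induced libraries. MRPL23, whose bacterial counterpart sits at the exit of the peptide tunnel, was at 3.36 to 4.25 CPM in induced and 4.34 to 4.78 CPM in non-induced libraries. In each case the lowest non-induced library was close to the highest induced one.

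Taken pair by pair, the displacement of the members was not the same in the 4 pairs. The median log2 ratio of the 78 members, induced over non-induced, was -0.13 in pair 1, -0.03 in pair 2, 0.00 in pair 3 and -0.07 in pair 4, with an SD of 0.059 over the pairs. Below 0 were 87.2% of the members in pair 1, 67.9% in pair 2, 47.4% in pair 3 and 73.1% in pair 4, against 48.7%, 49.3%, 50.0% and 49.3% of all tested genes in those pairs. Pair 3 thus showed no displacement of the members. All 4 pairs were lower for 21 members (26.9%), against 17.0% of all tested genes, and all 4 were higher for 2 members (2.56%), MRPL19 and MRPL38, against 18.6%. MRPL19 was at 67.5 ± 6.21 CPM in induced and 64.8 ± 6.11 CPM in non-induced cells (SD, n = 4 each), and its adjusted p was 0.365 in edgeR with the block.

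**Figure D3:**
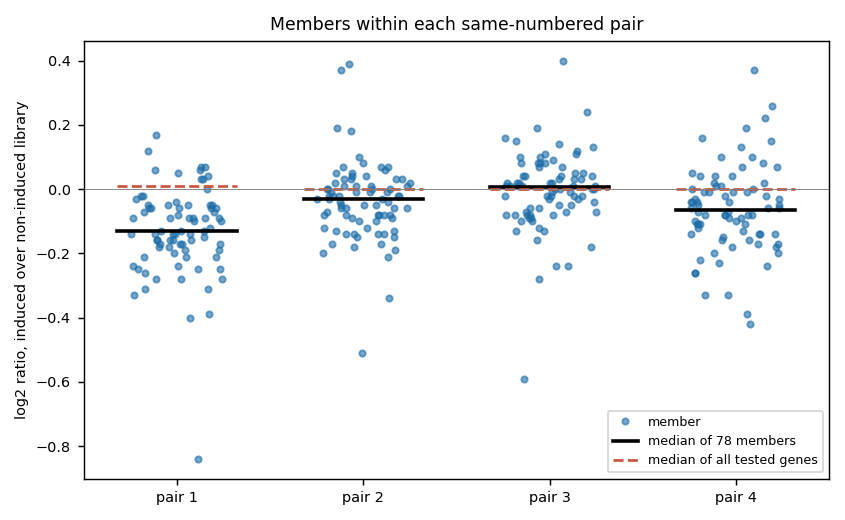
Log2 ratio of the induced over the non-induced library of the same number for each of the 78 members (points, spread sideways for clarity), with the members' median (solid line) and that of all tested genes (dashed line). The members' median is -0.13 in pair 1 and 0.00 in pair 3.

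Of the 6 members with an absolute log2 change above 0.2, 3 were among the lowest in level, MRPL38, MRPS24 and MRPL53. MRPS24, counterpart of bacterial S3, was at 1.01, 1.44, 1.57 and 2.00 CPM in induced libraries 1 to 4, against 1.89, 2.10, 1.87 and 2.21 CPM in non-induced libraries 1 to 4. The groups overlapped and the log2 change of -0.42 had a standard error of 0.21, with an edgeR adjusted p of 0.602 (0.141 with the block). Within pairs it differed by -0.84 in pair 1 and -0.14 in pair 4. It shares 23.2% of its exon bases with the readthrough gene URGCP-MRPS24. MRPL53 was at 1.75 to 2.31 CPM in induced and 1.84 to 3.05 CPM in non-induced libraries, and shares 45.2% of its exon bases with CCDC142.

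Levels of different genes were compared per kb of exon union. The same 3 genes led in both groups. MRPL14, at 70.8 ± 3.92 CPM per kb in induced cells and 75.4 ± 2.38 CPM per kb in non-induced cells (SD, n = 4 each), was followed by MRPL51 with 69.0 in induced and 72.3 in non-induced cells and by MRPL15 with 63.9 and 69.9. MRPL14 and MRPL15 have bacterial counterparts and MRPL51 occurs only in mitochondria. The lowest in induced cells was MRPS24, at 0.576 CPM per kb in induced and 0.772 in non-induced cells. Above it in induced cells came MRPL46, at 1.18 CPM per kb in both groups, and MRPL23, at 1.33 in induced and 1.52 in non-induced cells. MRPL38 was at 1.46 in induced and 1.21 CPM per kb in non-induced cells.

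The median member was at 20.3 CPM per kb in induced and 21.4 in non-induced cells, and the highest exceeded the lowest 123-fold in induced and 97.7-fold in non-induced cells. Most neighbours in the order could not be separated. Of 77 neighbouring pairs of genes, 12 in induced and 10 in non-induced cells differed by more than their combined SD. Of the 10 lowest members in non-induced cells, 6 shared at least 10% of their exon bases with another gene on the same strand, against 5 of the other 68. The median share was 17.2% in those 10 and 0.0% in the rest. Its part in the low values was not tested.

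**Figure D4:**
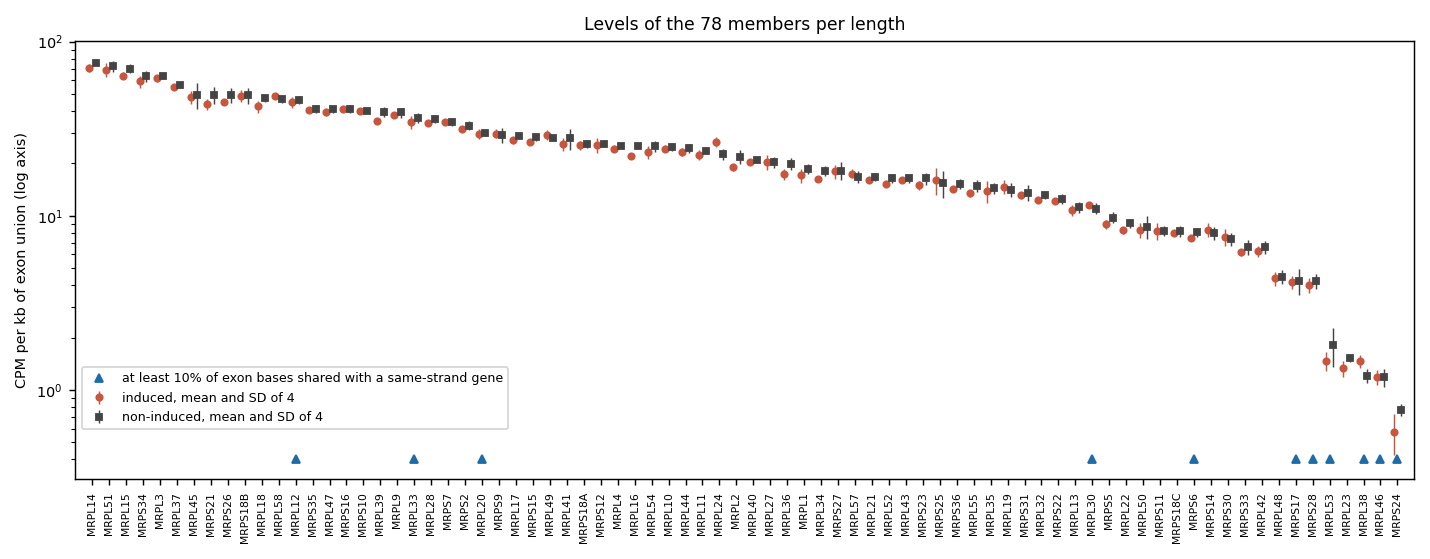
Mean level of each member in CPM per kb of exon union on a log axis, with the SD over 4 libraries as bars, for induced (circles, left) and non-induced cells (squares, right), ordered by the non-induced level. Triangles mark members that share at least 10% of their exon bases with another gene on the same strand, 6 of which are among the 10 lowest.

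In the libraries numbered 1 members deviated in both directions, in shares near those of all tested genes. Library 1 was above the mean of the other 3 libraries in both groups for 29 members (37.2%). It was below that mean in both groups for 31 (39.7%). The shares over all tested genes were 41.1% and 39.3%. The median absolute offset of library 1 was smaller for the members, 0.114 in induced and 0.117 in non-induced cells on the log2 scale, than for all tested genes, 0.234 and 0.23. This was not particular to library 1. In induced libraries 2 to 4 it was 0.0404 to 0.074 for the members against 0.109 to 0.127 for all tested genes. In non-induced libraries 2 to 4 it was 0.0744 to 0.0882 against 0.115 to 0.137. MRPS25, a small-subunit protein found only in mitochondria, had the largest positive offset of library 1. It was at 108, 84.2, 79.3 and 72.6 CPM in induced libraries 1 to 4, against 105, 73.8, 78.6 and 74.4 CPM in non-induced libraries 1 to 4. The libraries numbered 1 were high in both groups, and the induction contrast was 0.05 with a standard error of 0.04 with the block. MRPS25 shares 1197 exon bases with NR2C2 on the opposite strand. MRPL45 was at 92.1 CPM in induced library 1 and at 107 CPM in non-induced library 1, and at 74.9 to 80.6 CPM in the other induced and 76.6 to 79.1 CPM in the other non-induced libraries. MRPL35 went the other way, with 41.8 CPM in induced library 1 and 49.5 CPM in non-induced library 1, against 55.2 to 58.9 CPM in the other induced and 55.4 to 59.9 CPM in the other non-induced libraries.

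Across the 8 libraries, the genes outside the family whose log2 level followed the mean of the 78 members most closely were ATIC (Pearson's r = 0.976), BTF3 (0.97), PSME1 (0.969), METTL13 (0.967) and RPS7 (0.964). These values describe 8 libraries that include both libraries numbered 1. The genes were picked as the highest of many, so high values follow in part from that choice, and shared regulation was not tested. The members' mean log2 level was 5.41 and 5.42 in induced libraries 1 and 2, 5.45 in induced library 3 and 5.48 in induced library 4, against 5.55, 5.46, 5.46 and 5.54 in non-induced libraries 1 to 4.

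Other genes of mitochondrial gene expression were read as lists beside the members. Without the block, none of the genes of these 8 lists was called by edgeR or by DESeq2, and 3 had an unadjusted p of at most 0.05 in edgeR. With the block in edgeR, 3 were called higher and 2 lower, where 7.51% of all tested genes were called higher and 6.29% lower. DESeq2 with the block called 0 genes of the 8 lists, so none of the calls described next was made by it. Of 7 mitoribosome proteins whose symbols begin otherwise, none was called, and their median log2 change was -0.07. DAP3, a GTP-binding protein of the small subunit, was at 98.7 ± 8.47 CPM in induced and 108 ± 15.0 CPM in non-induced cells (SD, n = 4 each), lower in 4 of 4 pairs with an edgeR adjusted p of 0.0825 with the block.

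Among 14 mitochondrial translation factors, with a median of 0.01, MTRF1 was called higher with the block. MTRF1, a release factor homologue, was at 15.4, 15.0, 14.9 and 14.1 CPM in induced libraries 1 to 4, against 12.8, 11.6, 11.3 and 12.5 CPM in non-induced libraries 1 to 4. The groups did not overlap, the log2 change was 0.30 with a standard error of 0.07, and the edgeR adjusted p was 0.0152 with the block and 0.257 without it. The call was lost without pair 2 or pair 3. TUFM, the elongation factor that brings aminoacyl-tRNA to the ribosome, was at 255 to 289 CPM in induced and 271 to 331 CPM in non-induced libraries and was not called.

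Of 20 mitochondrial aminoacyl-tRNA synthetases and amidotransferase subunits, with a median of 0.04, 2 were called higher with the block. LARS2, which charges the leucine tRNAs, was at 41.0 ± 0.917 CPM in induced and 35.7 ± 2.83 CPM in non-induced cells (SD, n = 4 each), with a log2 change of 0.20 and an edgeR adjusted p of 0.0266 with the block. EARS2, the glutamyl-tRNA synthetase, had a log2 change of 0.14 and an adjusted p of 0.05 at the threshold. Leaving out pair 2 or 4 ended the call of LARS2, and leaving out pair 1, 3 or 4 that of EARS2. The other 18 were not called.

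Of 25 genes for mitoribosome assembly and ribosomal RNA modification, with a median of -0.04, TFB1M was called lower with the block. TFB1M, which methylates the ribosomal RNA of the small subunit, was at 22.7, 15.5, 17.0 and 16.7 CPM in induced libraries 1 to 4, against 30.9, 18.6, 18.1 and 19.6 CPM in non-induced libraries 1 to 4. Both libraries numbered 1 were the highest of their groups, and without pair 1 or pair 4 the call was lost (edgeR adjusted p 0.0235 with all pairs). Of 11 genes for mitochondrial transcription and RNA stability, with a median of 0.01, SLIRP, the partner of LRPPRC in binding mitochondrial messenger RNA, was called lower with the block. It was at 57.5 ± 3.29 CPM in induced and 63.9 ± 4.01 CPM in non-induced cells (SD, n = 4 each), with an edgeR adjusted p of 0.0273 with the block, and was not called without pair 2, 3 or 4. None of 11 mitochondrial chaperones and proteases was called, with a median of -0.02.

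The 13 messenger RNAs encoded by mitochondrial DNA, the templates of this ribosome, had a median log2 change of -0.03, and none was called with or without the block. Their median was 0.23 in pair 2 and between -0.12 and -0.08 in the other pairs. The 2 mitochondrial ribosomal RNAs had a median of -0.05 and were not called.

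**Figure D5:**
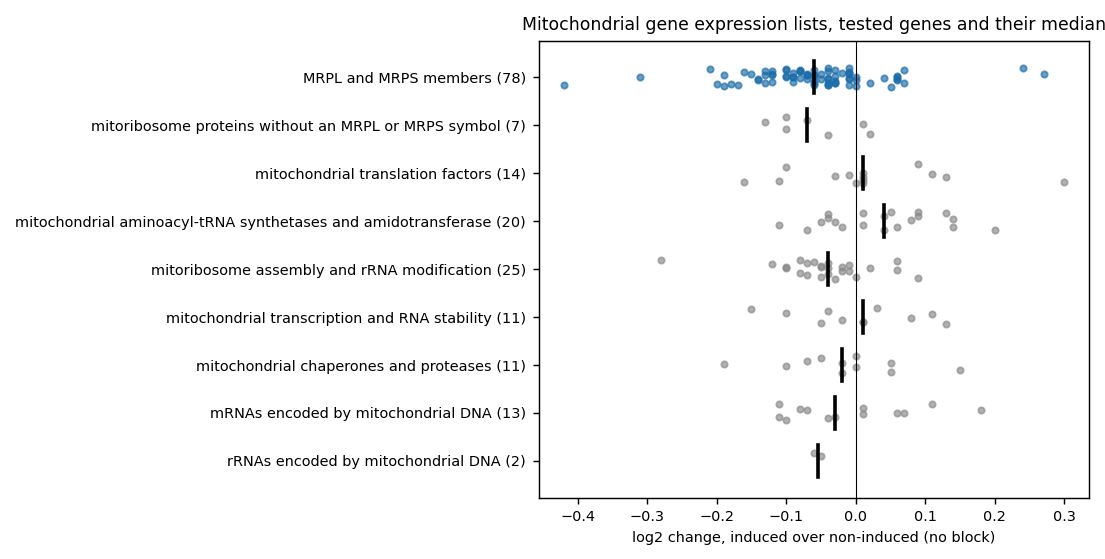
Log2 change of the tested genes, induced over non-induced without a block (points), for the members and for each list of mitochondrial gene expression genes, with the median of each list marked and the number of genes in brackets. The medians lie between -0.07 and 0.04.

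Members with and without promoter matches had nearly the same median change. The 30 members with an ETS match had a median log2 change of -0.05 with 4 called lower with the block, and the 39 without one had -0.06 with 2 lower and 1 higher. The ETS members include MRPS21 and MRPS23, printed above. The 13 members with a YY1 match, MRPL36 among them, had a median of -0.06 with 1 called lower, and the 56 without one had -0.05 with 5 lower and 1 higher. With any of the 3 motifs, 40 members had a median of -0.06 with 5 called lower, and the 29 without had -0.04 with 1 lower and 1 higher. Of all tested genes 6.29% were called lower and 7.51% higher with the block, and these splits were not tested.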

How the data were processed

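Total RNA of 8 libraries was sequenced as 75 bp single reads from a directional kit, per the labels' protocols. The submitters' processing notes name HISAT2 2.1.0, HTSeq 0.11.1, Trimmomatic 0.38, bcl2fastq, DESeq2 1.24.0, hg38 and GRCh38. How the counting treated strand, and which annotation it used, is not given in the sources used here. Whole-number read counts were deposited by the authors per Ensembl gene, used for all tests, and a normalized signal table, which the authors made by dividing the counts by 1 factor per library and which was used only for that check. Of 58395 genes, 58275 matched GENCODE 29.

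Counts were kept by filterByExpr (minimum count 10), scaled by TMM and compared in edgeR 4.0.16 (R 4.3.3) by the robust quasi-likelihood test, two-sided, with Benjamini-Hochberg adjustment over 15637 genes and a threshold of 0.05. Scripts were tested on simulated data. Log2 values per library use a prior count of 2. Standard errors given with edgeR changes were derived from the test, as the absolute log2 change divided by the square root of its F statistic. Alternatives were the replicate block, DESeq2 1.42.0, other scalings, other filters, no robust estimation, a threshold of 0.01, and leaving out libraries or pairs.

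Same-numbered libraries' deviations from group means correlated at 0.911, 0.704, 0.707 and 0.648 over 11502 genes with mean log2 CPM above 2, and differently numbered ones at -0.775 to 0.667. The pairing comes from the shared numbers and this check, and both libraries numbered 1 weigh on it.

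The members and lists were chosen with earlier results of these data known. Members given in full were, by rule, up to 6 a direction with the smallest p with the block, those called without it, up to 6 whose groups do not overlap, the 3 highest and 3 lowest per length, those of largest and smallest spread, and 7 fixed names. The genes of extreme library 1 offset, MRPL53, TUFM, KLC4, CCDC142 and NR2C2 were chosen after their values were seen. Protein comparisons of the MRPS18 genes were not run. The 75 pseudogenes with such names held 1872 reads, against 719121 on the members.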

Additional observations from a re-analysis of the deposited data

Results flagged for a closer look

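Within a group of 4, a library whose gap to the next value took up most of the group's range was singled out by Dixon's test, which picks about 1 group in 20 by chance. Of 62 groups of named members and sums looked at, 3 had such a library, a share near that picked by chance, and each was a library numbered 1. Some members were named for their library values, MRPS25 for its large spread over the non-induced libraries and MRPL17 for groups that do not overlap. A library set apart in MRPS25 thus follows in part from how the gene was picked. MRPL17 was at 57.4 CPM in induced library 1, below 62.9 to 64.0 CPM in the other induced libraries. MRPS25 was at 105 CPM in non-induced library 1, above 73.8 to 78.6 CPM in the other non-induced libraries, and it was also highest in induced library 1. MRPS18B was at 107 CPM in non-induced library 1, above 86.8 to 89.6 CPM in the others. What sets the libraries numbered 1 apart was not tested.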

How the results depend on the processing

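The median log2 change of the tested members stayed below 0 under every alternative run for it, from -0.085 to -0.032 with libraries or pairs left out, at -0.056 with the replicate block, and at -0.061, -0.067 and -0.053 with RLE, upper-quartile and library-total scaling.

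Counts of members called depended on the replicate block. Without it, 0 were called higher and 0 lower, except that DESeq2 called 1 lower and leaving out both libraries numbered 1 gave 1 higher (leaving out others gave 0). With the block, 1 was called higher and 7 lower. Of these calls, the 40 members with no opposite-strand gene held 1 and 6, and the 38 with one held 0 and 1. RLE scaling or library totals gave 1 and 7, upper-quartile scaling 1 and 8, and no filter 1 and 9. A filter at 10 CPM gave 1 and 8, no robust estimation 1 and 6, a threshold of 0.01 0 and 2, and DESeq2 0 and 1. With the block and 1 pair left out, 0 to 1 were called higher and 2 to 5 lower (2 without pair 1, 5 without pair 2, 4 without pair 3, 2 without pair 4). Of all tested genes, 7.51% were called higher and 6.29% lower with the block in edgeR, and 3.65% and 3.43% in DESeq2. Without pair 1 these shares were 5.12% and 5.79% in edgeR. Shares for the other alternatives with the block are not given here, so those counts cannot be set against all genes. In the 8 mitochondrial lists the block gave 3 higher and 2 lower, against 0 without it. With the block and 1 pair left out, 1 to 3 were higher and 0 to 8 lower, 8 of them without pair 2. The share of all tested genes called without pair 2 is not given here, so whether 8 exceeds it cannot be read. DESeq2 with the block gave 0 higher and 0 lower in these lists. The cause was not tested. Ordering levels by the longest transcript in place of the exon union kept 6 of the 10 highest members.

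Of 920 alternatives over 30 named members, 813 kept direction and side of the threshold, 72 passed it and 35 changed sign, all in members near 0 and nearly all when libraries or pairs were left out. Over those, the log2 change ran from -0.07 to 0.108 for MRPL46 (-0.073 to 0.105 with the block), from -0.165 to 0.065 for MRPS17 (-0.162 to 0.069), from -0.101 to 0.031 for MRPS12 (-0.102 to 0.018), from -0.067 to 0.069 for MRPS18B (-0.027 to 0.008) and from -0.04 to 0.1 for MRPS30 (-0.005 to 0.07). Without the block it ran from -0.074 to 0.009 for MRPS18A, from -0.067 to 0.006 for MRPS18C, from -0.078 to 0.185 for MRPS25 and from -0.005 to 0.119 for MRPL19. MRPL46 was at 0.003 with the block and library totals, MRPS17 at 0.03 with the block and without pair 1, and MRPS12 at 0.004 with the block and without pair 2.

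Depth limits the lowest members, of which 4 had under 100 reads in some library. The standard error of a single member's log2 change had a median of 0.07 without the block and 0.05 with it, against a median change of -0.057 and -0.056.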

Other observations

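Of 10 genes linked to cell proliferation, 1 was called higher and 2 lower with the replicate block, where 7.51% of all tested genes were called higher and 6.29% lower. Without it edgeR and DESeq2 called 0, and 1 had an unadjusted p of at most 0.05 in edgeR. MKI67, a marker of cycling cells, was at 606 ± 76.4 CPM in induced and 555 ± 78.0 CPM in non-induced cells (SD, n = 4 each; edgeR adjusted p 0.024 with the block). AURKB, a kinase of chromosome segregation, was at 181 ± 17.7 CPM in induced and 212 ± 16.6 CPM in non-induced cells (0.00258), and CDK1, the kinase of mitotic entry, at 176 ± 18.0 and 194 ± 19.8 CPM (0.0127). Leaving out pair 2, 3 or 4 ended the call of MKI67 (adjusted p up to 0.121), and leaving out pair 4 that of CDK1 (0.0543). Reads on pseudogenes named for members were few, and MRPL3P1 held the most, 891 over the 8 libraries.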
